A study of Mus musculus with 6 samples.

Results

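HOX, CDX and TALE homeobox genes encode transcription factors that bind DNA through a homeodomain. They were taken from the expression table by symbol, as all rows named for a Hoxa, Hoxb, Hoxc or Hoxd gene, for Cdx1, Cdx2 or Cdx4, or for a gene of the Meis, Pbx, Pknox or Tgif families. The rule itself uses no measured value, but it was chosen with earlier results of these data known. It gave 29 of the 14005 genes in the table. Of the 39 Hox genes in the mm9 annotation, 15 had a row, namely 2 of 11 Hoxa, 9 of 10 Hoxb, 0 of 9 Hoxc and 4 of 9 Hoxd genes, and the other 24 were not analysed here. All 14 of the 14 CDX and TALE genes had a row.

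The libraries were made from FLK1+ cells sorted out of embryoid bodies (EBs), which mouse embryonic stem (ES) cells had formed by day 3.5, 3 from the wild-type (WT) line J1 and 3 from an Scl-/- line, in which the haematopoietic transcription factor gene Scl (Tal1) is disrupted. Both groups were grown and sorted alike, and the libraries are replicates numbered 1 to 3 in both groups. Whether same-numbered WT and Scl-/- libraries shared a differentiation was not established here. Their pairing rests on correlations in these same data. Each genotype was represented by a single ES line, so a difference between the lines other than Scl cannot be told apart from the genotype. The labels gave the strain as C57Bl/6 X Sv129 for WT replicates 1 and 2 and Scl-/- replicate 1, and the same name ending in Sv130 for Scl-/- replicate 2, Sv131 for WT replicate 3 and Sv132 for Scl-/- replicate 3. Values were counts-per-million (CPM) from 38623641 to 47621120 reads on listed genes per library, so that 3 reads on a gene amounted to between 0.0615 and 0.0784 CPM. Tal1 itself stood at 303, 182 and 306 CPM in the WT and 9.35, 5.68 and 5.87 CPM in the Scl-/- libraries, and Kdr, the gene of the FLK1 antigen used for the sort, ranged from 832 to 868 CPM in WT and from 724 to 810 CPM in Scl-/- cells, without passing the test.

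Hox genes lie in 4 clusters on different chromosomes and are numbered 1 to 13 by their order within them. In the gastrulating embryo low-numbered genes are switched on first and high-numbered genes later, and nested domains of Hox expression give mesoderm and neural tube their position along the body axis. CDX proteins, encoded away from the clusters, bind and activate Hox genes in posterior mesoderm and are needed for embryonic blood formation in mouse and fish. PBX and MEIS proteins, of the TALE class, bind DNA together with HOX proteins, PKNOX proteins are MEIS relatives that also pair with PBX, and TGIF proteins are repressors that act on SMAD and retinoid signalling.

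The Hoxb cluster, on chromosome 11, held most of the measured Hox genes. It includes Hoxb1, with a fold change near 0, and the genes with the lowest fold changes. The sequence before the start of Hoxb1 and of Hoxb8, a middle gene of the cluster called lower with the replicate block described below, is shown so that both can be compared, from the RefSeq promoter table of GRCm38.p6 placed by exact match in mm9, on the + strand, with motif matches in capitals. For Hoxb1, the first 250 bases of the table entry lie at chr11:96226822-96227071 and their last 6 bases fall in the annotated first exon, and for Hoxb8 they lie at chr11:96142969-96143218, outside annotated exons. Both stretches are printed 5′ to 3′.
Hoxb1: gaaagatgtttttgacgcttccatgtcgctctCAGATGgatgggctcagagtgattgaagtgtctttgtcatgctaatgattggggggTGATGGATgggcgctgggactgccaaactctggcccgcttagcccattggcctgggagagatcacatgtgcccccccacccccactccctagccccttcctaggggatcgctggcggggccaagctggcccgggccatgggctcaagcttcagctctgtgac
Hoxb8: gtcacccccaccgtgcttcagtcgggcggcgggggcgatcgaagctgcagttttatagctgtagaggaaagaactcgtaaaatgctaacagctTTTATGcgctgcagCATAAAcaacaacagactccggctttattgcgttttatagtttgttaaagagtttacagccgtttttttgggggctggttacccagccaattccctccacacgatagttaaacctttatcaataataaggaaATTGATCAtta
In the Hoxb1 sequence the capitals mark CAGATG, a match to the E-box form CAGNTG that SCL with its partners can bind, and TGATGGAT, a match to the PBX-HOX form TGATNNAT. In the Hoxb8 sequence they mark TTTATG and, on the other strand, CATAAA, both matches to the CDX form TTTATG, and ATTGATCA, a match to the PBX-HOX form on the other strand. Matches were sought on both strands, and the forms marked do not overlap in these windows. A gene was counted when any of its promoters in the table held the form. Of the 27025 genes of the promoter table, 48.2% held the E-box form, 12.4% the CDX form and 8.81% the PBX-HOX form. Among the 17 members with an entry, 7 held the E-box form, namely Cdx2, Cdx4, Hoxb1, Hoxb4, Hoxd9, Pbx2 and Tgif1. The CDX form was held by 3 (Hoxb8, Hoxd3 and Tgif1) and the PBX-HOX form by 3 (Hoxb1, Hoxb8 and Tgif1). Hoxb4, called lower with the block, thus held the E-box form like Hoxb1, and Tgif1, not called, held all 3 forms. These are matches of letters and not measured binding sites.

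When libraries were paired by replicate number, 11 of the 14 Hox genes tested were called lower in Scl-/- than in WT FLK1+ cells, Cdx2 and Cdx4 were called lower, Meis2 and Pbx3 were called higher, and the other MEIS, PBX, PKNOX and TGIF genes were not called. Without the pairing no member was called. The groups were compared with limma on log2(CPM + 0.5), where low genes come out with too small a change because of the pseudocount, and fold changes are Scl-/- against WT on that log2 scale. A gene was called at a Benjamini-Hochberg adjusted p under 0.05 with an absolute log2 fold change above 0.48. Of the 29 members, 28 passed the filter of at least 0.5 CPM in at least 3 libraries, 6 of them with fewer than 3 Scl-/- libraries at that level, and Hoxd3 did not pass. With genotype as the only term, limma called 0 of the 28, against 2.36% of the 13991 genes tested (1.57% lower and 0.793% higher in Scl-/- cells), and 10 of the 28 had an unadjusted p under 0.05, against 17.7% of all genes. With the replicate number as a block, 15 of the 28 were called, 13 lower and 2 higher, against 12.6% of all genes (6.6% lower and 6.04% higher). The replicate numbers paired the samples by the correlation of their deviations, so adjusted p-values of the fit with the block are given below for each gene beside those of the fit without it.

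Over the genes of chromosome 11 the log2 fold change had a median of 0.31 and over those of chromosome 1 a median of -0.29, whereas the medians of chromosomes 2, 6 and 17 were 0.01, 0.00 and 0.01. With the median of each chromosome removed and the block kept, 14 members were called, 12 lower and 2 higher, against 10.7% of all genes (5.9% lower and 4.76% higher). Hoxb3 was called only in this fit, and Hoxd1 and Hoxd8 only in the fit that kept the chromosome medians. The ranges of the WT and Scl-/- libraries were apart for 7 members, all lower in Scl-/- cells, while such a gap was found in 10.7% of all genes in that direction and in 11.0% in the other. In each of the 3 same-numbered pairs the Scl-/- library was the lower for 18 of the 28, against 26.4% of all genes. The median log2 fold change was -1.15 over the 14 Hox genes tested, -0.18 over the 14 CDX and TALE genes and 0.01 over all genes.

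**Figure D1:**
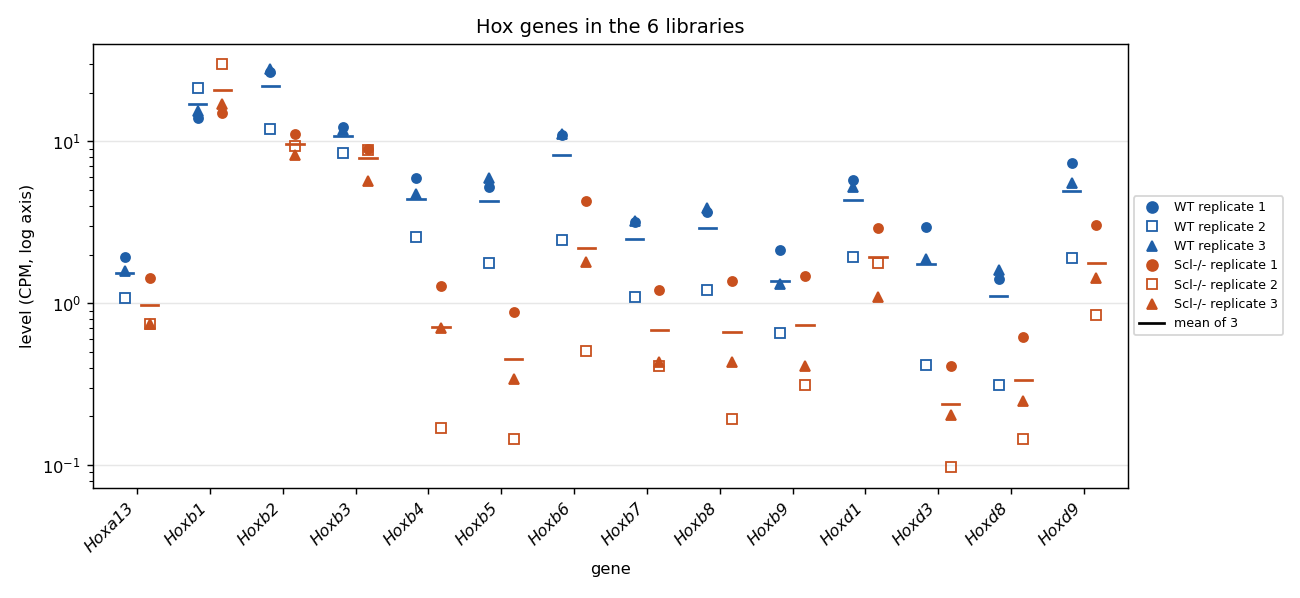
CPM of 14 Hox genes on a log axis, with 1 point for each of the 3 WT and 3 Scl-/- libraries. Hoxb1 overlaps between the groups, whereas the 3 Scl-/- points of Hoxb4 and Hoxb5 lie below all 3 WT points.

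Hoxb1 (ENSMUSG00000018973), the most 3′ gene of its cluster and among the earliest Hox genes of the primitive streak, lies on chromosome 11 from 96227066 to 96229570 of mm9. Its WT replicates 1 to 3 measured 13.9, 21.5 and 15.3 CPM, against 14.9, 30.0 and 16.96 CPM in the Scl-/- replicates of the same numbers. Replicate 2 was the highest library of both genotypes, and the groups overlapped. The log2 fold change was 0.24 with an SE of 0.11 under the block (limma adjusted p = 0.77, with the block 0.149, 95% interval -0.01 to 0.48), and -0.07 after the chromosome median was removed.

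Hoxb2 (chromosome 11, 96212946 to 96217003), a gene used in hindbrain and early mesoderm, had 26.7, 11.9 and 27.8 CPM in WT and 11.1, 9.33 and 8.28 CPM in Scl-/- cells. All 3 Scl-/- libraries were below the lowest WT library, replicate 2, by a small margin. Hoxb2 had a log2 fold change of -1.09 (limma adjusted p = 0.138, with the block 0.0109). Hoxb3 differed less, with 12.2, 8.49 and 11.7 CPM against 8.998, 8.85 and 5.67 CPM and a log2 fold change of -0.45 (limma adjusted p = 0.369, with the block 0.12). After the chromosome median was removed, the log2 fold change of Hoxb3 was -0.76 (limma with the block, adjusted p = 0.0335). The antisense RNA Hoxb3os covers 49.4% of the exon bases of Hoxb2 and 37.9% of those of Hoxb3, and the strand setting of the counting is not given in the sources used here, so reads of these genes and of Hoxb3os cannot be told apart.

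Hoxb4 and Hoxb5 had the lowest fold changes of all members. Hoxb4 (ENSMUSG00000038692, chromosome 11, 96177998 to 96182952), known for expanding blood progenitors when overexpressed, had 5.95, 2.56 and 4.76 CPM in WT and 1.27, 0.169 and 0.703 CPM in Scl-/- cells. The means were 4.42 ± 1.72 and 0.714 ± 0.551 CPM (SD, n = 3 each), a 6.19-fold lower mean, and the groups did not overlap. Its log2 fold change of -2.06 had an SE of 0.42 without and 0.16 with the block (limma adjusted p = 0.0534, with the block 0.000165), and was -2.37 with the chromosome median removed. Hoxb5 (ENSMUSG00000038700, chromosome 11, 96163909 to 96167434), a marker of long-lived blood stem cells in the adult, had 5.19, 1.78 and 5.95 CPM in WT and 0.881, 0.145 and 0.34 CPM in Scl-/- cells. The mean was 4.31 ± 2.22 in WT and 0.456 ± 0.381 CPM in Scl-/- cells (SD, n = 3 each), a 9.45-fold difference with no overlap. The log2 fold change of Hoxb5 was -2.27, with SEs of 0.45 and 0.24 (limma adjusted p = 0.0524, with the block 0.000615).

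The calls of Hoxb2, Hoxb4 and Hoxb5 without the block turned on single libraries. Without WT replicate 2, Hoxb2 (-1.47, limma adjusted p = 0.00941), Hoxb4 (-2.37, limma adjusted p = 0.035) and Hoxb5 (-2.74, limma adjusted p = 0.0114) were called, and without Scl-/- replicate 1, Hoxb4 was (-2.39, limma adjusted p = 0.0425).

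The next genes towards the 5′ end, Hoxb6, Hoxb7 and Hoxb8, are expressed in posterior mesoderm of the embryo. Hoxb6 read 11.01, 2.46 and 11.1 CPM in WT and 4.30, 0.508 and 1.79 CPM in Scl-/- cells. Each Scl-/- library was below the WT library of the same number, but Scl-/- replicate 1 was above WT replicate 2, so the groups overlapped. The log2 fold change of Hoxb6 was -1.72, with an SE of 0.70 without and 0.21 with the block (limma adjusted p = 0.255, with the block 0.00129). Hoxb7, at 3.19, 1.10 and 3.23 CPM in WT and 1.21, 0.411 and 0.431 CPM in Scl-/- cells, and Hoxb8, at 3.66, 1.20 and 3.86 CPM in WT and 1.37, 0.193 and 0.431 CPM in Scl-/- cells, showed the same order of libraries in WT. Their log2 fold changes were -1.31 for Hoxb7 (limma adjusted p = 0.157, with the block 0.00767) and -1.56 for Hoxb8 (limma adjusted p = 0.154, with the block 0.0033). Exons shared by Hoxb7 and Hoxb8 on the same strand make up 26.2% of the exon bases of Hoxb7 and 40.4% of those of Hoxb8, so the split of reads between this pair is uncertain.

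Hoxb9, the most 5′ Hoxb gene with a row, had 2.13, 0.653 and 1.31 CPM in WT and 1.48, 0.314 and 0.408 CPM in Scl-/- cells. The groups overlapped, and its log2 fold change of -0.64 was just inside the threshold with the block (limma adjusted p = 0.0498, without the block 0.524), and lost the call when any 1 of the 3 pairs was left out, at limma adjusted p from 0.0812 to 0.214. Summed over Hoxb2 to Hoxb9, the level was 70.0, 30.2 and 69.8 CPM in WT and 30.6, 19.9 and 18.1 CPM in Scl-/- cells. The sum in Scl-/- replicate 1 thus stood slightly above that in WT replicate 2. By position in the cluster, the log2 fold change went from 0.24 at Hoxb1 through -1.09 and -0.45 at Hoxb2 and Hoxb3 to -2.27 at Hoxb5, and then back to -0.64 at Hoxb9.

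Levels of Hoxb genes were also set against Hoxb1 within each library, which takes the scaling of the library and any shift shared by the chromosome out of the comparison. Hoxb1 had the only fold change above 0 among the tested Hoxb genes, and Hoxb4 one of the lowest. Their ratio is thus no support apart from those fold changes. The log2 ratio of Hoxb4 to Hoxb1, each as CPM + 0.5, was -1.16, -2.84 and -1.59 in WT and -3.12, -5.51 and -3.86 in Scl-/- cells. All 3 Scl-/- ratios were below the 3 WT ratios, and the difference of -2.30 had a p of 0.1 by a two-sided exact permutation test, the smallest that 3 against 3 libraries can give. The same exact permutation test gave p = 0.2 for Hoxb2 against Hoxb1, with a difference of -1.32, and p = 0.4 for Hoxb9 against Hoxb1, with a difference of -0.87. This test takes the libraries as unpaired. Within same-numbered pairs the Scl-/- ratio was lower in 3 of 3 pairs for each gene, with differences of -1.96, -2.67 and -2.27 for Hoxb4, -1.33, -0.81 and -1.83 for Hoxb2 and -0.51, -0.97 and -1.14 for Hoxb9, and the paired exact permutation test, which flips the signs of the pairs, gave p = 0.25 for each, the smallest that 3 pairs allow.

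Of the Hoxa cluster, on chromosome 6, few genes had a row. Hoxa13, a gene of limb bud, hindgut and allantois, had 1.93, 1.07 and 1.58 CPM against 1.43, 0.749 and 0.748 CPM and a log2 fold change of -0.47 (limma adjusted p = 0.446, with the block 0.101). It was lower in Scl-/- cells in each pair but was not called.

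All 4 Hoxd genes, on chromosome 2, were at low level. Hoxd9 (ENSMUSG00000043342, 74535737 to 74538265), the highest of them in CPM, had 7.33, 1.91 and 5.54 CPM in WT and 3.05, 0.846 and 1.43 CPM in Scl-/- cells. WT replicate 2 lay among the Scl-/- libraries, and the log2 fold change of Hoxd9 was -1.21 (limma adjusted p = 0.274, with the block 0.00351). Hoxd1, at 5.79, 1.93 and 5.22 CPM in WT and 2.91, 1.76 and 1.09 CPM in Scl-/- cells, and Hoxd8, at 1.40, 0.314 and 1.60 CPM in WT and 0.615, 0.145 and 0.249 CPM in Scl-/- cells, had WT replicate 2 inside the Scl-/- range as well. Hoxd1 had a log2 fold change of -0.95 (limma adjusted p = 0.309, with the block 0.0497) and Hoxd8 of -0.87 (limma adjusted p = 0.335, with the block 0.0402), and with the chromosome median removed neither was called, at adjusted p = 0.0652 and 0.0507.

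Hoxd3 had reads in every library, 118, 16 and 77 in WT and 20, 4 and 9 in Scl-/- cells, equal to 2.96, 0.418 and 1.87 CPM and 0.41, 0.0967 and 0.204 CPM. WT replicate 2 was barely above Scl-/- replicate 1, so that the groups were only just apart. Fitted without the filter on low values, a setting added with the block after the values were seen, Hoxd3 had a log2 fold change of -1.43 (limma adjusted p = 0.179, with the block 0.00822). The sum over the 4 Hoxd genes was 17.5, 4.57 and 14.2 CPM in WT and 6.99, 2.85 and 2.97 CPM in Scl-/- cells. Hoxd3 shares 29.8% of its exon bases with Hoxd4, which was not analysed here.

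Grouped by number over all clusters, the median log2 fold change was -0.95 over the 5 anterior genes tested (paralogue groups 1 to 3), -1.64 over the 6 middle genes (groups 4 to 8) and -0.64 over the 3 posterior genes (groups 9 to 13). All middle genes except Hoxd8 are the adjacent Hoxb4 to Hoxb8, so the middle median mostly repeats the Hoxb cluster. In the Hoxd cluster the order was the other way, with posterior Hoxd9 at -1.21 and middle Hoxd8 at -0.87. A trend by number was not tested. With the block, 3 of the 5 anterior, 6 of the 6 middle and 2 of the 3 posterior genes were called lower and none was called higher, where 6.6% of all genes were called lower and 6.04% higher, and without the block 0 of these Hox genes were called. Of the 15 members called with the block, 7 were called with any 1 of the 3 pairs left out, namely Hoxb4, Hoxb5, Hoxb6, Hoxb7, Hoxb8, Hoxd9 and Pbx3. Without pair 1, pair 2 or pair 3, limma with the block called 11, 9 and 8 of the 15. Cdx4, Hoxb9 and Hoxd8 were lost whichever pair was left out, Hoxd1 without pair 1 (adjusted p = 0.0508) or pair 3 (0.227), Hoxb2 without pair 3 (0.0663), and Cdx2 and Meis2 without pair 2 (0.0521 and 0.0604) or pair 3, where Cdx2 was at -0.39 and Meis2 at 0.47.

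**Figure D2:**
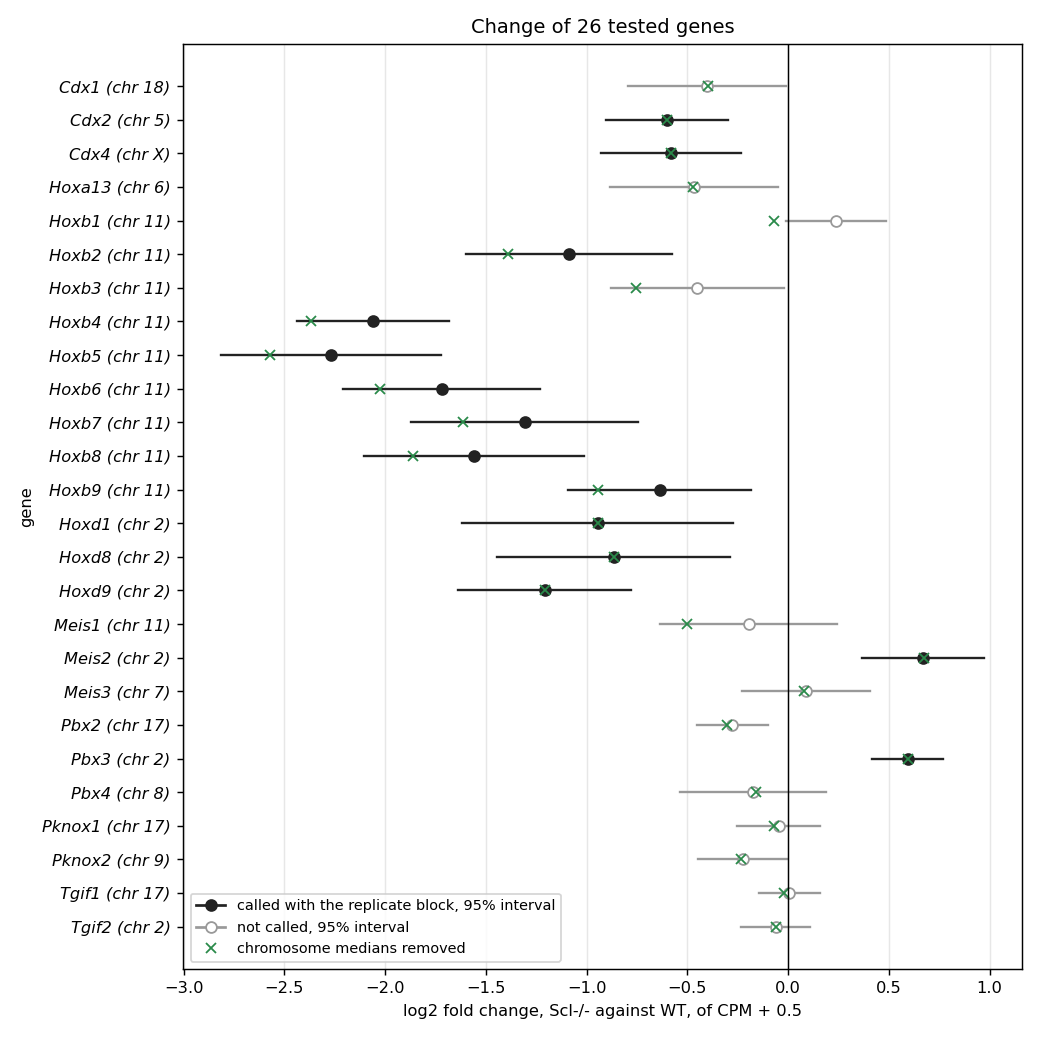
Log2 fold change (Scl-/- against WT) of 26 of the 28 members tested, with the 95% confidence interval of limma with the replicate block as a bar and the value after removal of the chromosome median as a cross. Hoxb4 and Hoxb5 lie lowest, at -2.06 and -2.27, and Meis2 and Pbx3 highest, at 0.67 and 0.59.

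The 3 CDX genes were lower in Scl-/- cells in each of the 3 pairs. Cdx2 (ENSMUSG00000029646, chromosome 5, 148112381 to 148118846), needed for trophoblast and for growth of the posterior body, had 43.7, 18.3 and 45.4 CPM in WT and 33.7, 13.6 and 22.1 CPM in Scl-/- cells. Its groups overlapped widely, since replicate 2 was the lowest library of both genotypes. The means of Cdx2 were 35.8 ± 15.2 and 23.1 ± 10.1 CPM (SD, n = 3 each), and the log2 fold change was -0.60 (limma adjusted p = 0.548, with the block 0.0142).

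Cdx4, on the X chromosome and tied to blood formation by the zebrafish kugelig mutant, had 3.91, 2.80 and 2.72 CPM in WT and 2.50, 1.89 and 1.45 CPM in Scl-/- cells, and the groups did not overlap. The log2 fold change of Cdx4 was -0.58 (limma adjusted p = 0.249, with the block 0.0269), and no single pair could be left out without losing the call, at adjusted p from 0.0597 to 0.123. Cdx1, a WNT and retinoic acid target, had 2.16, 2.27 and 2.48 CPM in WT and 1.62, 1.91 and 1.36 CPM in Scl-/- cells. Its ranges did not overlap, but at a log2 fold change of -0.40 (limma adjusted p = 0.321, with the block 0.125) it was not called.

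Among the TALE genes, Meis2 and Pbx3 rose under the block. Meis2 (ENSMUSG00000027210, chromosome 2, 115688800 to 115891575), a HOX partner of lateral and limb mesoderm, had 15.6, 37.4 and 12.1 CPM in WT and 20.5, 55.3 and 25.9 CPM in Scl-/- cells. Replicate 2 was by far the highest library of both genotypes, and the groups overlapped, although each Scl-/- library was above the WT library of its number. The log2 fold change of Meis2 was 0.67 with an SE of 0.48 without and 0.13 with the block (limma adjusted p = 0.56, with the block 0.00909), and the call was lost without pair 2 or pair 3. Meis1, a partner of HOXA9 in blood stem cells and leukaemia, was at 2.48, 3.66 and 1.51 CPM in WT and 1.87, 2.42 and 1.90 CPM in Scl-/- cells, and its log2 fold change was -0.19 (limma adjusted p = 0.831, with the block 0.511). With the chromosome median removed Meis1 was at -0.50 (limma with the block, adjusted p = 0.107). Meis3 was at 15.0, 16.3 and 19.1 CPM and 21.3, 15.6 and 16.9 CPM and had a log2 fold change of 0.09, with a 95% interval of -0.23 to 0.41 under the block.

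Pbx3 (ENSMUSG00000038718, chromosome 2, 34026977 to 34228660) had 69.4, 106 and 60.8 CPM in WT and 93.9, 159 and 104 CPM in Scl-/- cells. WT replicate 2 was above Scl-/- replicates 1 and 3, and each pair was higher in the Scl-/- library. The log2 fold change of Pbx3 was 0.59, with an SE of 0.08 under the block (limma adjusted p = 0.29, with the block 0.00159).

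Pbx2, a widely expressed member, had 138.9, 131.95 and 144.8 CPM in WT and 129.2, 108.5 and 106.0 CPM in Scl-/- cells. The groups did not overlap and the adjusted p with the block was 0.033 (limma, without the block 0.232), but the log2 fold change of -0.28 was short of the fold threshold. Pbx4 (-0.17), Pknox1 (-0.05), Pknox2 (-0.23), Tgif1 (0.01) and Tgif2 (-0.06) were not called in either fit. Tgif1 and Tgif2, at means of 63.8 ± 1.99 and 72.7 ± 5.78 CPM in WT and 64.1 ± 1.96 and 69.5 ± 1.68 CPM in Scl-/- cells (SD, n = 3 each), varied little between libraries, and under the block their 95% intervals ran from -0.14 to 0.16 for Tgif1 and from -0.23 to 0.11 for Tgif2. An antisense RNA covers 35.0% of the exon bases of Tgif2.

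**Figure D3:**
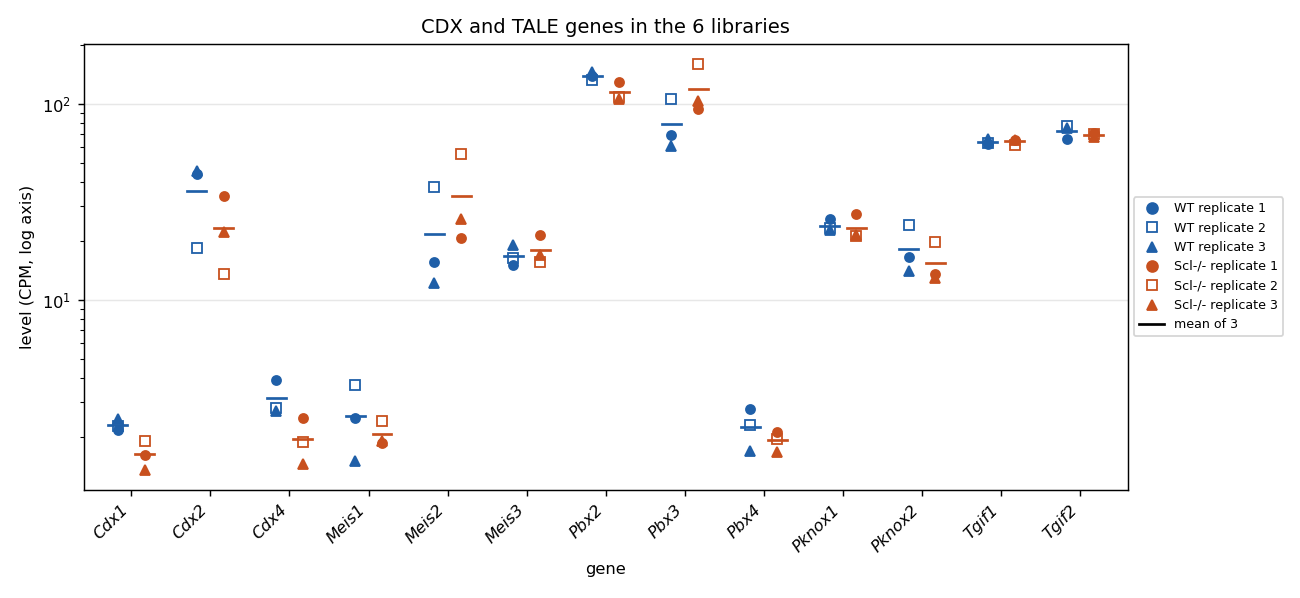
CPM of 13 CDX and TALE genes on a log axis, with 1 point for each of the 3 WT and 3 Scl-/- libraries. Tgif1 and Tgif2 vary little, Cdx2 is lowest and Meis2 and Pbx3 are highest in replicate 2 of both genotypes.

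Levels between genes were compared per kb of annotated exon. Pbx2 was at 38.1 CPM per kb in WT and 31.5 in Scl-/- cells, and Tgif2 at 23.1 and 22.1 CPM per kb. The highest Hox genes were Hoxb1, at 7.28 and 8.88 CPM per kb, and Hoxb2, at 6.70 and 2.90 CPM per kb. In WT Hoxb6 followed, at 3.95 and 1.06 CPM per kb, and then Hoxb3, at 3.59 and 2.61, whereas in Scl-/- cells Hoxb3 was above Hoxb6. Hoxb5 was at 1.53 and 0.162, and Hoxb4 at 1.07 and 0.172. Among the CDX genes, Cdx2 was at 15.8 and 10.2 CPM per kb, Cdx4 at 1.60 and 0.991 and Cdx1 at 1.32 and 0.931. Reads on the Hox members ran from 4 to 1241 per library and those on the CDX and TALE members described here from 60 to 6564, so the precision of the low Hox values rests on few reads, and floors and read numbers cover counting error only. Hoxb1 and Hoxb2 in WT, Hoxb6 and Hoxb3 in WT, Hoxb2 and Hoxb3 in Scl-/- cells, Hoxb4, Cdx4 and Cdx1, and Tgif2 and Tgif1 are neighbours in level whose order was not tested.

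The members also differed between replicates of a genotype, and for many of them replicate 2 was at the same end of both genotypes. WT replicate 2 was the lowest WT library for 14 of the 15 Hox genes, and Scl-/- replicate 1 was the highest Scl-/- library for 14 of the 15. Replicate 2 was the lowest of both genotypes for 10 members, namely Cdx2, Hoxb4 to Hoxb9, Hoxd3, Hoxd8 and Hoxd9, and it was the highest of both for Hoxb1, Meis1, Meis2, Pbx3 and Pknox2. Against the mean of replicates 1 and 3, replicate 2 differed on the log2 scale by -1.97 in WT and -1.72 in Scl-/- cells for Hoxb6, by -1.26 and -0.98 for Cdx2 and by 1.42 and 1.24 for Meis2. Replicate 2 differed by -0.92 in WT and -0.72 in Scl-/- cells for Hoxb9, and by 0.70 and 0.68 for Pbx3. Among the members called with the block, these differences were larger in size than the one between the genotypes for Cdx2, Meis2, Hoxb9 and Pbx3. In WT alone this also held for Hoxb2, Hoxb6, Hoxd1, Hoxd8 and Hoxd9. Marker genes of other cell types also stood apart in replicate 2. The summed level of 13 haematopoietic and endothelial markers, Tal1 among them, was 1399.5, 913 and 1514 CPM in WT and 527, 392 and 553 CPM in Scl-/- cells. This sum was lowest in replicate 2 of both genotypes. Sums were highest in replicate 2 of both for 7 primitive streak markers, at 448, 1155 and 606 CPM in WT and 931, 2437 and 1946 CPM in Scl-/- cells, and for 8 paraxial mesoderm markers, at 68.1, 219 and 89.5 CPM and 103, 366 and 238 CPM. The part of these markers in the replicate pattern of the Hox, CDX and TALE genes was not tested.

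Genes within and around the Hox clusters were examined in the same fit. Inside the Hoxb cluster, the antisense RNA 0610040B09Rik had 16.5, 4.26 and 17.1 CPM in WT and 5.23, 0.749 and 2.09 CPM in Scl-/- cells, in the library order of Hoxb6, and its log2 fold change was -2.09 (limma adjusted p = 0.166, with the block 0.000627). Hoxb3os (-0.77, limma with the block, adjusted p = 0.0271) and Gm53 (-0.86, limma with the block, adjusted p = 0.0122) were also called lower with the block, and Gm11536 (-0.68) was not. Gm15051 in the Hoxa cluster (-1.32, limma with the block, adjusted p = 0.00796) and 1700109F18Rik in the Hoxd cluster (-0.93, limma with the block, adjusted p = 0.0255) were called lower, and 6720416L17Rik in the Hoxd cluster (-0.32) was not. Gm20398 was the tested gene inside the Hoxc cluster, where no Hox gene had a row, at 2.88, 0.575 and 1.31 CPM in WT and 1.07, 0.0967 and 0.386 CPM in Scl-/- cells. Its log2 fold change was -0.998 (limma adjusted p = 0.36, with the block 0.00684).

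Outside the Hoxb cluster, Skap1, which encodes an adaptor of T cell receptor signalling, lies 96.3 kb beyond it. Skap1 had 13.8, 7.24 and 9.93 CPM in WT and 2.01, 1.21 and 0.952 CPM in Scl-/- cells, a log2 fold change of -2.51 that was called in both fits (limma adjusted p = 0.00914, with the block 7.8e-05). The gene 2010300F17Rik lies within the span of Skap1 and was called in both fits at -1.72, and whether its reads are separate from those of Skap1 was not tested. Gm11537, beyond Skap1, was at 0.11. On the other side, Snf8 was called higher at 0.67 (limma adjusted p = 0.0261), and Ube2z (0.43) and Atp5g1 (0.14) were not called. With the chromosome median removed and the block kept, Snf8 was at 0.37, short of the fold threshold. Over all 41 tested genes outside the Hoxb cluster and within 1000 kb of its centre, the median was 0.26, near the median of chromosome 11, and 6 were called lower and 6 higher with the block.

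Evx1, a homeobox gene of the primitive streak that lies 52.6 kb beyond Hoxa13, had a fold change of the opposite sign to that of Hoxa13. It had 117, 146 and 139 CPM in WT and 199, 242 and 237 CPM in Scl-/- cells, a log2 fold change of 0.75 (limma adjusted p = 0.0271, with the block 0.000141), and its neighbour 5730457N03Rik was called higher at 0.53 (limma adjusted p = 0.0458). Hibadh, further on, was at -0.19. On the other side of the cluster, Skap2, a paralogue of Skap1, was called lower at -0.90 (limma adjusted p = 0.0277), Snx10 was called with the block alone at -0.63 and Cbx3 was at -0.02. None of the 9 tested genes outside the Hoxd cluster within 1000 kb was called with the block, with a median of -0.02 and Lnp and Mtx2, the nearest coding genes, at -0.23 and -0.22. The 3 nearest tested genes on each side of the Hoxc cluster were between -0.11 and 0.12 and were not called.

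**Figure D4:**
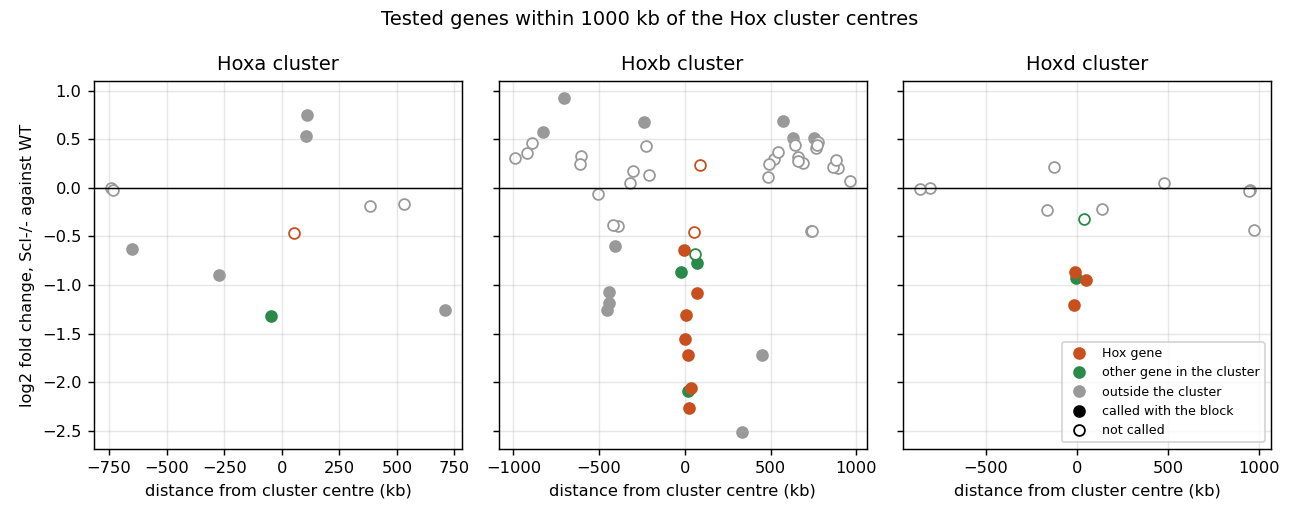
Log2 fold change (Scl-/- against WT) of tested genes by distance in kb from the centre of the Hoxa, Hoxb and Hoxd clusters, with Hox genes described here, other genes inside the clusters and genes outside them in separate colours. Hoxb2 to Hoxb9 lie below most of the 41 genes around them, and Skap1, at -2.51, is the lowest gene of the Hoxb window.

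Genes of the signals that act on Hox and Cdx genes were read from lists of pathway genes. The first list joined WNT and FGF genes with target genes and other genes of the caudal embryo and primitive streak. Of its 13 genes tested, 0 were called lower and 1 higher without the block, against 1.57% and 0.793% of all genes. With the block 1 was called lower and 8 higher, against 6.6% and 6.04% of all genes. The median log2 fold change of the list was 0.69 against 0.01 over all genes. Axin2, a negative-feedback target of WNT signalling, was called in both fits at 1.18 (limma adjusted p = 0.0033), and Sp5, another WNT target, was at 1.59 and called with the block alone (limma adjusted p = 0.21, with the block 0.000767). Nkx1-2, a homeobox gene of the caudal epiblast, was the gene of this list called lower, at -1.34 (limma adjusted p = 0.205, with the block 0.00174). The CDX genes, which are themselves known WNT targets, had a median of -0.58. Axin2 lies on chromosome 11 and was at 0.88 with the median of that chromosome removed.

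Of 12 genes of retinoic acid synthesis, breakdown and binding, 0 were called without the block and 2 lower and 2 higher with it, with a median of 0.01. Of all genes, 6.6% were called lower and 6.04% higher with the block. Crabp2, which carries retinoic acid to its receptor, was at -1.04 (limma adjusted p = 0.142, with the block 0.021), and Crabp1 and Cyp26a1, the enzyme that degrades retinoic acid, were at 0.71 and 0.68 (limma with the block, adjusted p = 0.00347 and 0.00117). Of 11 MLL and other chromatin genes that maintain Hox expression, 0 were called in either fit, with a median of -0.07. The other TALE genes with a row, Irx3 (0.68), Irx5 (1.07) and Mkx (0.64), were called higher with the block and not without it.

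Markers of other cell types were read in the same fits, which called 2.36% of all genes without the block and 12.6% with it. The 13 haematopoietic and endothelial markers include Tal1, the gene disrupted in the Scl-/- line, so its own call was fixed by the design. Of the 13, 9 were called lower and 1 higher without the block and 12 lower and 1 higher with it. Tal1 (-5.14), Tie1 (-3.64) and Gata1 (-3.28) were lowest. The summed level of the 13, Tal1 included, ranged from 913 to 1514 CPM in WT and from 392 to 553 CPM in Scl-/- cells. Of 7 primitive streak markers, Mixl1 was called higher without the block (1.04, limma adjusted p = 0.0378, and 1.33 with the median of chromosome 1 removed) and 6 with it, with summed levels of 448 to 1155 CPM in WT and 931 to 2437 CPM in Scl-/- cells. Of 8 paraxial mesoderm markers 0 were called without and 5 higher with the block. Their sums were 68.1 to 219 CPM in WT and 103 to 366 CPM in Scl-/- cells. Of 10 cardiac markers 0 were called without and 5 higher with the block, with sums of 776 to 829.8 and 853 to 974 CPM. The cardiac markers were split, with 5 above 0 and 5 below. Among those below, Hand1 was at -0.45 and not called in either fit. With chromosome medians removed Hand1 was called lower, at -0.76 (limma with the block, adjusted p = 0.0298). Of 3 endoderm markers, Hhex (-1.64) was called lower without the block and 2, Hhex and Sox17, lower with it. The endoderm markers were split, with 2 below 0 and 1 above, the last higher in Scl-/- cells in each of the 3 pairs. The paper counts Sox17 among endothelial genes activated by SCL, so these calls do not show a change of endoderm. Of 6 pluripotency markers 0 were called without and 1 lower and 2 higher with the block, and of 3 neural markers 0 without and 2 higher with the block. None of the listed markers with a row was at 0 in all libraries. The part of these markers in the differences of the Hox, CDX and TALE genes was not tested, and in such sorted bulk samples fewer cells of a type and less RNA per cell cannot be told apart.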

How the data were processed

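RNA-seq of FLK1+ EB cells was read as CPM from a table of 3 WT and 3 Scl-/- libraries. The authors aligned reads to mm9 with TopHat2 2.0.8b, removed duplicate read pairs, filtered on mapping quality with SAMtools 0.1.19, normalised with edgeR's TMM method and deposited CPM values for 14005 genes. Removal of duplicates can limit values of short or highly expressed genes. The counting tool, annotation, strand setting and edgeR model are not given in the sources used here. Each CPM value was, within 0.1 of a read, a whole multiple of a step per library, and read numbers are estimates from this step. Count models were not run, because low values were too rare in the table to test whether they were whole reads by the rule used.

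Members and gene lists were chosen with earlier results of these data known. Groups and replicate numbers came from the labels. Values were tested as log2(CPM + 0.5) with limma 3.58.1 (R 4.3.3), using lmFit and a trended eBayes, for genes of at least 0.5 CPM in 3 libraries. Adjustment was over all 13991 genes, and calls needed an adjusted p under 0.05 and a log2 fold change beyond 0.48 in either direction. Same-numbered libraries deviated together from their group means (r = 0.59, 0.76 and 0.75, against -0.62 to -0.10 for different numbers), so a replicate block was fitted beside it. Deviations from a mean of 3 libraries sum to 0, so positive correlations of same numbers force negative ones among different numbers. The contrast between them is thus partly built in. Simulated data had 200 of 13991 genes differing 2-fold and a replicate effect with an SD of 0.3 (log2), shared by same-numbered libraries. There the block raised the number of changed genes found from 0 to 200 and of false calls from 0 to 2. With no replicate effect both fits found 200, with 2 false calls without and 1 with the block. The shared effect was built in, so this does not show that calls in the measured data are right. Alternatives were other pseudocounts, filters, scalings and thresholds, no trend, and each library left out. Of the 29 members, 2 are counted but not reported by name here, and the others are all named. Members called in either fit and the highest member of each cluster and family are given by library. Other genes named are Tal1, Kdr, the 3 nearest tested genes on each side of each cluster, tested genes inside the clusters, and at most 3 called genes per list. The genes inside the clusters were named after their values were seen. Exons, positions and distances came from the mm9 gene annotation. Promoters were RefSeq entries of GRCm38.p6, found for 17 members. The authors' SCL, ETO2 and RYBP binding data were not used here. Other steps ran in Python 3.11.15 with NumPy 2.4.6, pandas 2.3.3 and Matplotlib 3.10.9.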

Additional observations from a re-analysis of the deposited data

How the results depend on the processing

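Without the block, 0 members and 330 genes in all were called, and with the replicate block 15 and 1768 were. In this balanced design the block leaves every fold change as it is, so only the calls can differ. With the block, 14 members and 1492 genes were called with chromosome medians removed, 15 and 1774 with median-ratio rescaling, 14 and 1822 at a pseudocount of 0.1, 14 and 1669 at a pseudocount of 1, 16 and 1776 with no filter (chosen after seeing the data) and 16 and 3385 with no fold threshold. A pseudocount of 1 without the block called 1 member, Hoxb4. With pair 1, 2 or 3 left out, the fit with the block called 11, 9 and 8 members and 2062, 1122 and 1210 genes. With single libraries left out, the fit without the block called from 0 to 3 members and from 44 (without WT replicate 1) to 384 genes, and between 128 and 162 without WT replicate 3, Scl-/- replicate 2 or Scl-/- replicate 3. The other settings without the block called 0 members and from 265 to 335 genes.

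The sign changed for 5 members that were not called in the fits compared. With chromosome medians removed, Hoxb1 was at -0.068 and Tgif1 at -0.0183, the last also at -0.0039 with median-ratio rescaling. With single libraries left out, Hoxb1 ranged from -0.0609 to 0.43, Meis1 from -0.47 to 0.0604, Meis3 from -0.0408 to 0.18, Pknox1 from -0.17 to 0.016 and Tgif1 from -0.0099 to 0.0324, and with pair 1 left out Meis3 was at -0.117 and Tgif1 at -0.0225. The cause was not tested. Depth limits Hoxd3, with 4 reads in a library, and the other low Hox genes most.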
